A study of Mus musculus with 4 samples.

Results

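The genes described here are 10 members of the NF-kB system of the mouse: the subunits Nfkb1, Nfkb2, Rela and Relb, the inhibitors Nfkbia, Nfkbib and Nfkbie, the nuclear inhibitor-like regulator Nfkbiz, the kinase gene Ikbkb and the feedback gene Tnfaip3. They were taken by gene symbol from a table of 16051 genes, and all 10 symbols were found. The cells were 3T3-L1, a mouse fibroblast line that was differentiated toward adipocytes, and the question was how their transcripts respond to risperidone, an antipsychotic drug that causes weight gain. Cells received 100 μM risperidone or the vehicle DMSO for 48 h, and mRNA was sequenced in 2 libraries per treatment. The labels name the NIH SWISS strain for all 4 libraries, and also an embryonic tissue, an extraction from retina and an untreated control. The study itself names DMSO and cultured 3T3-L1 cells, which is followed here. A library combined the RNA of 3 cultures. All p-values therefore rest on differences between pools and do not measure how single cultures vary.

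NF-kB is a family of transcription factors that work as dimers. In resting cells, IkB proteins hold the dimers in the cytoplasm. Ligands of TNF, interleukin-1 and Toll-like receptors activate the IkB kinase complex, which marks IkB proteins for degradation and frees the dimers to enter the nucleus. A second branch, started by other receptors of the TNF family, processes the Nfkb2 product p100 to p52, which pairs with RelB. Several inhibitors are themselves transcribed in response to NF-kB and so close a negative feedback loop. In adipose tissue the pathway is best known for the inflammation that accompanies obesity and insulin resistance.

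Since genes of this feedback loop are known to carry kB sites, the start regions of the members were read. The RefSeq promoter table for GRCm38.p6 held windows of 300 bases, from 250 before to 50 after an annotated start, for 6 of the 10 members, with 9 windows in all. The letters GGGNNTTTCC, where N is any base, were searched on both strands (GGAAANNCCC on the other). They occurred in 535 of all 32851 windows (1.63%). Among the members they occurred for 3 genes, Nfkbia, Tnfaip3 and Nfkb2, in 5 windows, of which some overlap and share a match. The windows of Nfkbib, Nfkbie and Rela did not hold these letters, which says nothing about other sites or about binding. The members without a window were Nfkb1, Relb, Nfkbiz and Ikbkb. The first sequence below is shown because Nfkbia is the inhibitor with the highest expression. The second is shown because Nfkbie is the inhibitor called lower with risperidone, and the short ones hold the matches of Tnfaip3 and Nfkb2. Sequences run 5′ to 3′ on the strand of the gene, and capitals mark the match.
Nfkbia, 250 bases before the start, chr12:55492648-55492897 (minus strand): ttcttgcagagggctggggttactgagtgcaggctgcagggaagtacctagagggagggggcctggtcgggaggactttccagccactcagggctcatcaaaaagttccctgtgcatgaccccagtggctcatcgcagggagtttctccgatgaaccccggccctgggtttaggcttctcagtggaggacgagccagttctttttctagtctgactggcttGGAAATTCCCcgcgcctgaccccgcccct
Nfkbie, 250 bases before the start, chr17:45555450-45555699 (plus strand): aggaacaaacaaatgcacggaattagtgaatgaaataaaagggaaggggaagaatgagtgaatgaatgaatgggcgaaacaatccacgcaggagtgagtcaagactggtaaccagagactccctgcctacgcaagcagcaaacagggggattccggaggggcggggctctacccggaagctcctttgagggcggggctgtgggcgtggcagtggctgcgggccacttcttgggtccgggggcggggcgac
Tnfaip3, around the start, chr10:19015403-19015432 (minus strand): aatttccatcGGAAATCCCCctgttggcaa
Nfkb2, around a start inside the gene, chr19:46304716-46304745 (plus strand): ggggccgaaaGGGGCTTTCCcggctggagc
Nfkb2, just after a further start, chr19:46305695-46305724 (plus strand): tggtattttcGGGACTTTCCtaagcagcac

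Expression is given in FPKM, fragments scaled to transcript length and to the mapped total of the library, so that genes of unlike length can be compared. Total counts ran from 15883712 to 16374119 per library, and a count of 0 allows up to 3 counts, or 0.183 to 0.189 CPM, from counting error only. Risperidone replicate 2 stood apart: the 12 kidney markers listed summed to 197 FPKM there and to 1.88 to 2.81 FPKM in the other libraries, so the results of the members and the counts of the gene lists are also given without it. Of 10 adipocyte markers, 7 had at most 20 counts in every library. Among these was Adipoq, the gene of adiponectin, with 1 count or less per library, while Pparg, Fabp4 and Lpl were expressed. The summed adipocyte markers were at 265 and 275 FPKM with risperidone and at 377 and 431 FPKM with DMSO. Lpl and Fabp4, which make up most of this sum, fell, whereas Pparg overlapped between treatments. The summed preadipocyte markers were at 180 and 187 FPKM with risperidone and at 103 and 105 FPKM with DMSO. Here Dlk1 and Thy1 rose, but Pdgfrb fell from 21.0 to 13.9 FPKM and Pdgfra was not called, so the list did not move together. Ly6a, at 1.93 and 1.84 FPKM with DMSO and 2.49 and 5.58 FPKM with risperidone, was called higher, and its highest value was in risperidone replicate 2. The part of these differences in the results below was not tested, and in bulk RNA fewer cells of a type cannot be told apart from less RNA per cell. Macrophage and leukocyte markers summed to 15.6 to 18.3 FPKM, but Cd68 rose (2.64 and 3.5 FPKM with DMSO, 6.34 and 6.7 FPKM with risperidone) and Cd14 fell (12.65 and 14.18 FPKM with DMSO, 9.97 and 9.67 FPKM with risperidone). Ptprc (CD45), which marks leukocytes, had 0 to 3 counts. Endothelial markers summed to 0.130 to 0.540 FPKM. Retina markers summed to 0.580 to 1.10 FPKM.

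Nfkb1, Nfkbie, Nfkbiz, Ikbkb and Tnfaip3 were lower with risperidone, and no member was higher. These 5 of 10 members passed edgeR's quasi-likelihood test at a Benjamini-Hochberg adjusted p under 0.05, taken over the 10243 genes whose mean over all libraries reached 1 FPKM. Over all genes tested, 32.2% were lower and 32.1% were higher, so calls were frequent throughout the transcriptome. The members gave 5 lower and 0 higher calls at an unadjusted p under 0.05 too, as did DESeq2 after adjustment. In limma on log2(FPKM + 1) there were 6 lower and 0 higher. Nfkbie reached the minimum of 1 FPKM through its DMSO libraries only, so it could hardly have been called higher. With a minimum of 5 FPKM, which removed Nfkbie, Tnfaip3 and Relb, 3 of 7 members were lower and 0 higher. Over all genes, 2732 of 8052 were then lower. The members were also chosen with earlier results of these data known. The FPKM values of the treatments did not overlap for 8 of the members, against 82.2% of all genes tested. The median log2 fold change, risperidone over DMSO, was -0.29 over the members and 0.0004 over all genes tested, whose quartiles were -0.32 and 0.28.

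**Figure D1:**
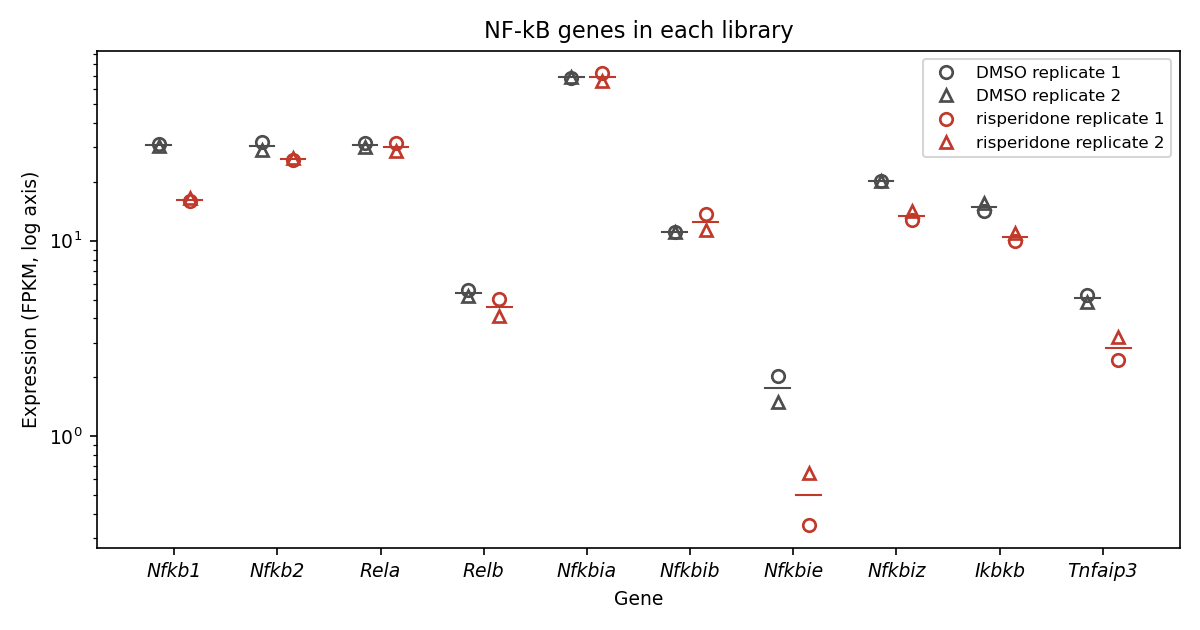
Expression of the 10 NF-kB genes in each library, in FPKM on a log axis, with the mean of each treatment as a line (2 libraries per treatment). Nfkb1, Nfkbie, Nfkbiz, Ikbkb and Tnfaip3 lie lower in both risperidone libraries, whereas Rela and Nfkbia overlap between treatments.

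Nfkb1 encodes p105, the precursor of the DNA-binding subunit p50 (NCBI Gene 18033, chr3:135584655-135691969 in GRCm38.p6, as for all genes below). Its expression was 31.36 and 30.46 FPKM with DMSO and 15.87 and 16.52 FPKM with risperidone. Both risperidone libraries were far below both DMSO libraries, and the replicates of each treatment lay close together. Means were 30.9 ± 0.636 and 16.2 ± 0.460 FPKM (SD, n = 2 libraries), and the fitted level fell by 44.1% (log2 fold change -0.84, standard error 0.0533; edgeR quasi-likelihood, Benjamini-Hochberg adjusted p = 3.1e-07). Without risperidone replicate 2 the log2 fold change was -0.86, and without risperidone replicate 1 it was -0.82. The RefSeq annotation places a long noncoding gene, Gm46827, over part of this locus, and reads of overlapping genes cannot be separated where the strand of counting is not known.

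Rela encodes p65, which pairs with p50 in the most common dimer and carries the transactivation domain (NCBI Gene 19697, chr19:5637442-5648134). It measured 31.62 and 30.17 FPKM with DMSO and 31.57 and 28.79 FPKM with risperidone. These ranges overlapped. The log2 fold change was 0.07 ± 0.0653 (standard error; edgeR quasi-likelihood, Benjamini-Hochberg adjusted p = 0.389), and its sign turned with library size as the only scaling (-0.03), on the FPKM scale (-0.03) and on the TPM scale, where it passed the threshold as lower (-0.18). Over the libraries left out in turn it ran from 0.0013 without risperidone replicate 1 to 0.13 without risperidone replicate 2. A p above the threshold does not show that Rela was unchanged.

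Nfkb2 encodes p100, the precursor of p52 and itself an inhibitor of Rel dimers (NCBI Gene 18034, chr19:46300994-46312400). Its values were 32.05 and 28.98 FPKM with DMSO and 25.95 and 26.65 FPKM with risperidone. The risperidone libraries were both lower, but the DMSO replicates differed by more than the risperidone replicates, and beyond counting error (chi-square 6.42). The log2 fold change was -0.11 ± 0.0625 (standard error; edgeR quasi-likelihood, Benjamini-Hochberg adjusted p = 0.135). It passed the threshold as lower with library size as the only scaling (-0.21), on the FPKM scale (-0.21) and on the TPM scale (-0.35), whereas with a correction for gene length it was 0.00071. Without risperidone replicate 2 it was -0.13, without DMSO replicate 1 -0.04 and without DMSO replicate 2 -0.18. The locus overlaps the end of Psd and a noncoding gene in the annotation.

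Relb encodes the partner of p52 (NCBI Gene 19698, chr7:19606217-19629438). It measured 5.58 and 5.23 FPKM with DMSO and 5.06 and 4.11 FPKM with risperidone, the lowest of the 4 subunits in every library. The risperidone values lay below the DMSO values by a narrow margin for replicate 1. The log2 fold change was -0.15 ± 0.146 (standard error; edgeR quasi-likelihood, Benjamini-Hochberg adjusted p = 0.389) and ran from -0.31 without risperidone replicate 1 to -0.01 without risperidone replicate 2. On the TPM scale it was -0.35 and passed the threshold.

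The subunits were also compared with each other within each library. Per transcript length, Nfkb1, Rela and Nfkb2 overlapped in the DMSO libraries and could not be ranked, at 30.9, 30.9 and 30.5 FPKM on average. In the risperidone libraries their order was Rela, Nfkb2 and Nfkb1, with no overlap between neighbours. Nfkb1 made up 31.2% and 32.1% of the summed FPKM of the 4 subunits with DMSO and 20.2% and 21.7% with risperidone. Rela made up 31.4% and 31.8% with DMSO and 40.2% and 37.8% with risperidone. The ratio of Nfkb1 to Rela was 0.992 and 1.01 with DMSO and 0.503 and 0.574 with risperidone. Such ratios within a library are free of its scaling, but not of a shift between treatments that goes with gene length. With a correction for gene length the log2 fold changes of Nfkb1 and Rela were -0.67 and 0.14, in place of -0.84 and 0.07. The ratios show unequal change rather than which gene moved. With 2 against 2 libraries an exact two-sided permutation test cannot go below 0.333, so shares and ratios are given without a test.

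**Figure D2:**
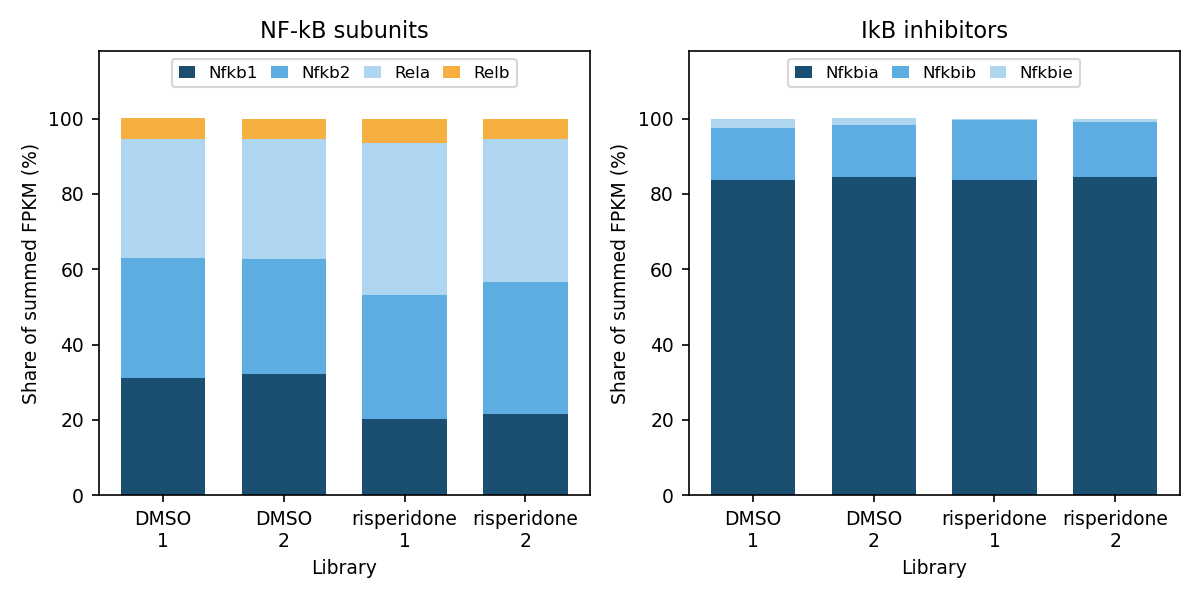
Share of each gene in the summed FPKM of the 4 NF-kB subunits (left) and of the 3 IkB inhibitors (right), in percent, in each of the 4 libraries. The Nfkb1 share is 20.2% and 21.7% with risperidone against 31.2% and 32.1% with DMSO, while Nfkbia takes 83.7% to 84.5% of the inhibitor sum in every library.

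Nfkbia encodes IkBα, the inhibitor that is degraded and resynthesized within a single round of signaling (NCBI Gene 18035, chr12:55489409-55492647). It had the highest expression of the members in every library, at 68.06 and 68.80 FPKM with DMSO and 71.83 and 65.62 FPKM with risperidone. The risperidone values enclosed the DMSO values. The log2 fold change was 0.10 ± 0.0570 (standard error; edgeR quasi-likelihood, Benjamini-Hochberg adjusted p = 0.130). It turned to -0.14 on the TPM scale, where it passed the threshold as lower, and it passed as higher with a correction for gene length (0.14) and without risperidone replicate 2 (0.17, edgeR quasi-likelihood, Benjamini-Hochberg adjusted p = 0.0120). Without risperidone replicate 1 it was 0.03. The sign of its log2 fold change thus depended on the scaling, and its call on risperidone replicate 2 as well. Relative to the median of all genes in the same fit, it lay above at 0.10 in edgeR and at 0.09 on the TPM scale.

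Nfkbib encodes IkBβ, which is resynthesized more slowly (NCBI Gene 18036, chr7:28758251-28766644). It measured 11.11 and 11.12 FPKM with DMSO and 13.65 and 11.36 FPKM with risperidone. Only risperidone replicate 1 stood clearly above the DMSO libraries. The log2 fold change was 0.27 ± 0.123 (standard error; edgeR quasi-likelihood, Benjamini-Hochberg adjusted p = 0.0743). Without risperidone replicate 1 it was 0.13, and without risperidone replicate 2 it was 0.40 and passed the threshold (edgeR quasi-likelihood, Benjamini-Hochberg adjusted p = 0.00887), and on the TPM scale it was 0.02.

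Nfkbie encodes IkBε, an inhibitor with delayed resynthesis (NCBI Gene 18037, chr17:45555700-45563169). It had the lowest expression of the members, at 2.02 and 1.5 FPKM with DMSO and 0.35 and 0.65 FPKM with risperidone. These values rest on 76 and 55 counts with DMSO and on 13 and 24 counts with risperidone, and both risperidone libraries were below both DMSO libraries. Means were 1.76 ± 0.368 and 0.5 ± 0.212 FPKM (SD, n = 2 libraries). The fitted level fell by 69.7% (log2 fold change -1.72, standard error 0.314; edgeR quasi-likelihood, Benjamini-Hochberg adjusted p = 0.000630). The gene passed the minimum of 1 FPKM through its DMSO libraries only, and its fold change ranged from -2.23 without risperidone replicate 2 to -1.34 over the libraries left out in turn. It was -0.88 in limma on log2(FPKM + 1), a scale that compresses changes of genes with low values.

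The 3 IkB genes together summed to 81.2 and 81.4 FPKM with DMSO and 85.8 and 77.6 FPKM with risperidone, so their ranges overlapped. The sum of the 4 subunits was 101 and 94.8 FPKM with DMSO and 78.5 and 76.1 FPKM with risperidone, with no overlap. The ratio of inhibitor to subunit transcripts was therefore 0.807 and 0.858 with DMSO and 1.09 and 1.02 with risperidone. Nfkbia set the inhibitor sum, while the share of Nfkbie in it was 2.49% and 1.84% with DMSO and 0.408% and 0.837% with risperidone. Per Nfkb1 transcript, Nfkbia was at 2.17 and 2.26 with DMSO and 4.53 and 3.97 with risperidone, whereas per Rela transcript it was at 2.15 and 2.28 with DMSO and 2.28 in both risperidone libraries. These are transcript ratios and say nothing of protein levels. They hold no correction for gene length, with which the log2 fold changes of Nfkbia and Nfkb1 were 0.14 and -0.67.

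Nfkbiz encodes IkBζ, a nuclear member of the IkB family that acts as a cofactor for a subset of NF-kB target genes (NCBI Gene 80859, chr16:55811375-55838954). It measured 20.29 and 20.18 FPKM with DMSO and 12.74 and 14.12 FPKM with risperidone. The DMSO replicates were nearly alike, and both risperidone libraries were lower. Means were 20.2 ± 0.0778 and 13.4 ± 0.976 FPKM (SD, n = 2 libraries). The fitted level fell by 28.9% (log2 fold change -0.49, standard error 0.0684; edgeR quasi-likelihood, Benjamini-Hochberg adjusted p = 8.84e-05), and without risperidone replicate 2 the log2 fold change was -0.56. Without risperidone replicate 1 it was -0.43. Relative to Nfkbia, Nfkbiz was at 0.298 and 0.293 with DMSO and 0.177 and 0.215 with risperidone.

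Ikbkb encodes IKKβ, the kinase subunit that phosphorylates IkB proteins in the canonical branch (NCBI Gene 16150, chr8:22659205-22706589). Its expression was 14.17 and 15.56 FPKM with DMSO and 9.91 and 10.89 FPKM with risperidone. All risperidone values were lower, with means of 14.9 ± 0.983 FPKM for DMSO and 10.4 ± 0.693 FPKM for risperidone (SD, n = 2 libraries). The fitted level fell by 26.0%. The log2 fold change was -0.43 (standard error 0.0722, edgeR quasi-likelihood, Benjamini-Hochberg adjusted p = 0.000323). It was -0.51 without risperidone replicate 2 and -0.36 without risperidone replicate 1.

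Tnfaip3 encodes A20, a ubiquitin-editing enzyme that ends the signal upstream of the kinase complex and is a classic NF-kB target (NCBI Gene 21929, chr10:19000910-19015410). It measured 5.28 and 4.87 FPKM with DMSO and 2.44 and 3.23 FPKM with risperidone. The risperidone replicates differed beyond counting error (170 against 222 counts, chi-square 7.87), yet both were below the DMSO libraries. Means were 5.08 ± 0.290 and 2.84 ± 0.559 FPKM (SD, n = 2 libraries). The fitted level fell by 40.3% (log2 fold change -0.74, standard error 0.129, edgeR quasi-likelihood, Benjamini-Hochberg adjusted p = 0.000453). The log2 fold change was -0.95 without risperidone replicate 2 and -0.56 without risperidone replicate 1.

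**Figure D3:**
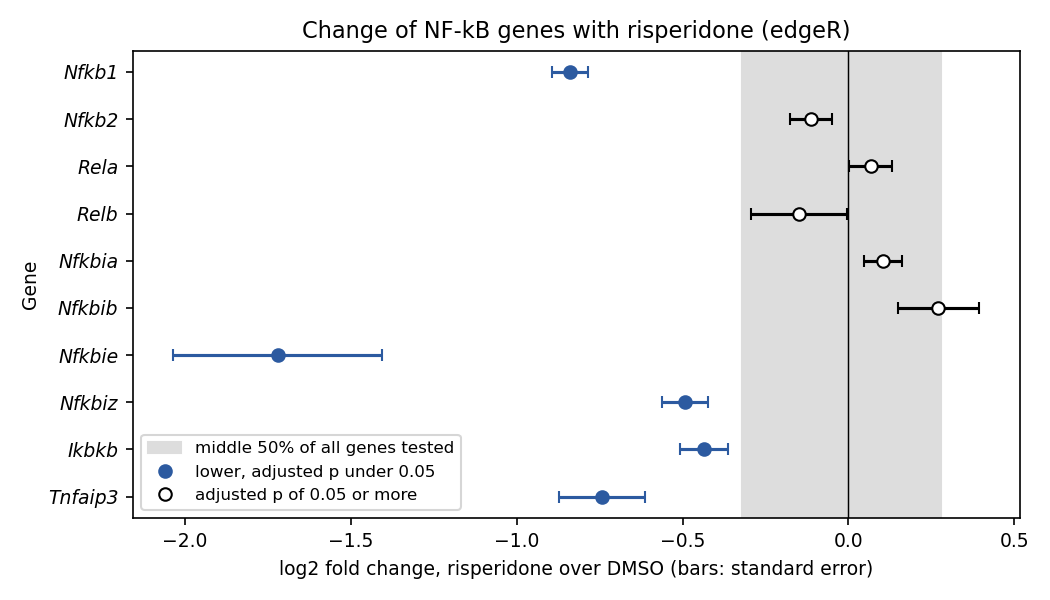
Log2 fold change, risperidone over DMSO, of the 10 NF-kB genes from edgeR with its standard error, 2 libraries per treatment. Filled points passed an adjusted p under 0.05, and the grey band spans the quartiles of all genes tested, -0.32 to 0.28: Nfkb1, Nfkbie, Nfkbiz, Ikbkb and Tnfaip3 lie to the left of it.

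The 5 lower members kept their direction and passed the threshold under all of the alternatives that tested them. Their log2 fold changes ranged from -1.05 to -0.67 for Nfkb1, from -2.23 to -0.88 for Nfkbie, from -0.71 to -0.34 for Nfkbiz, from -0.63 to -0.29 for Ikbkb and from -0.95 to -0.56 for Tnfaip3. A minimum of 5 FPKM removed Nfkbie, Tnfaip3 and Relb from the test. On the TPM scale, in which the values of each library have the same sum, the genes tested had a median log2 fold change of -0.22. There 9 members, all except Nfkbib, were lower and 0 higher, beside 51.7% lower and 15.0% higher over all genes. Relative to that median, Rela, Nfkbia and Nfkbib lay above and the other members below. With a correction for gene length that median was 0.10 and the members' median was -0.18.

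**Figure D4:**
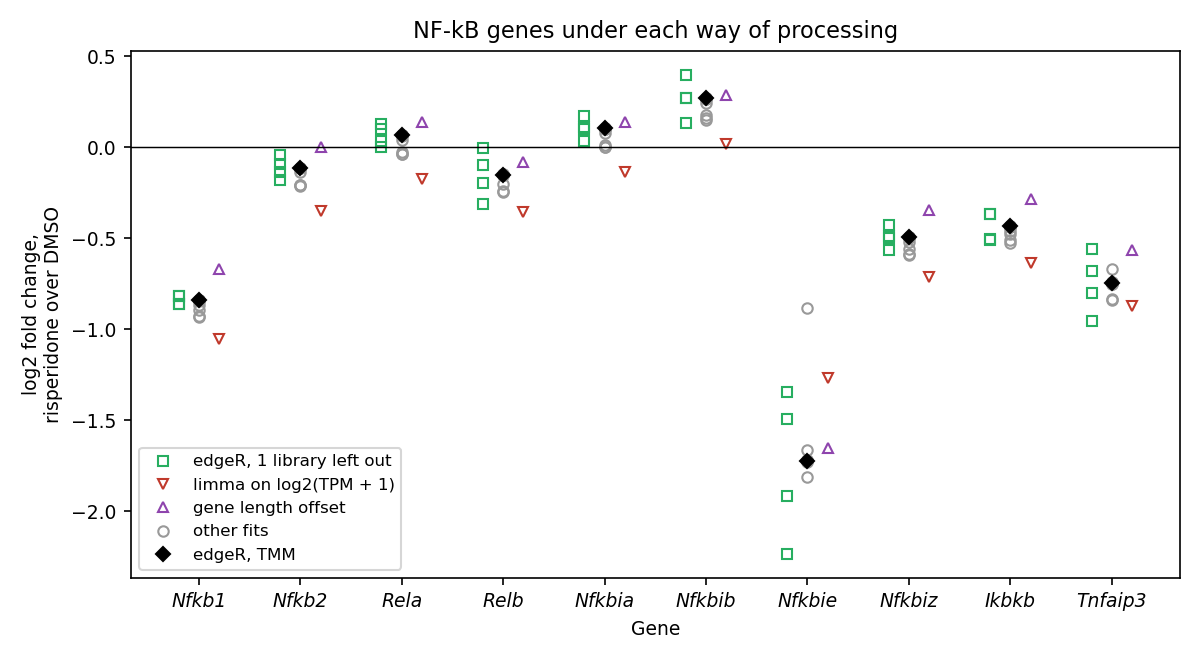
Log2 fold change, risperidone over DMSO, of each NF-kB gene under each way of processing, 1 symbol per fit. The TPM values are the lowest for all genes except Nfkbie and Tnfaip3, and the symbols of Nfkb2, Rela and Nfkbia fall on both sides of 0.

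The other components of the pathway were read from 3 lists, and a gene is said to fall or rise where it passed the same edgeR test. The lists were chosen with earlier results of these data known, so their shares are not independent of the data. Of the remaining subunits, inhibitors and kinases, 8 of 11 were tested, of which 3 were lower and 0 higher. These are 37.5% lower, beside 32.2% of all genes tested. The median log2 fold change was -0.11, beside 0.0004 over all genes tested. With a correction for gene length it was 0.0098, beside 0.10 over all genes tested. Tbk1, a kinase related to the IkB kinases, fell by 29.3% from 18.2 FPKM (log2 fold change -0.50). Map3k14, the kinase NIK that starts the branch through p100, and Ikbke, another IKK-related kinase, are named after their values were seen. Map3k14 measured 5.35 and 4.89 FPKM with DMSO and 2.69 and 2.37 FPKM with risperidone (log2 fold change -0.92), and Ikbke had a log2 fold change of -0.42. Chuk and Ikbkg, also named afterwards, encode the other IkB kinase complex subunits IKKα and NEMO and had log2 fold changes of 0.02 and -0.13, neither past the threshold. Of the trimeric complex, Ikbkb was thus the subunit that was called, but the differences among the subunits were not tested.

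Among receptors and adaptors upstream, 26 of 28 were tested, of which 17 were lower and 7 higher, with a median log2 fold change of -0.31. These are 65.4% lower and 26.9% higher, beside 32.2% and 32.1% of all genes tested. Tlr2, the receptor for bacterial lipopeptides, fell from 17.7 to 4.15 FPKM (log2 fold change -2.00). Myd88, the adaptor of most Toll-like receptors, fell from 24.6 to 8.89 FPKM (-1.37). Ticam1, the adaptor TRIF, rose from 16.7 to 28.1 FPKM (0.85), and Tab1, a partner of the kinase TAK1, rose from 5.29 to 7.82 FPKM (0.66). The list therefore held calls in both directions.

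Among the genes of ubiquitin editing and signal termination, 20 of 20 were tested, of which 8 were higher and 4 lower. These are 40% higher and 20% lower, beside 32.1% and 32.2% of all genes tested. The median log2 fold change was 0.07, beside 0.0004 over all genes tested. On the TPM scale it was -0.17, beside -0.22 over all genes tested. Rnf31, the catalytic subunit of the linear ubiquitin ligase, rose from 7.64 to 12.7 FPKM (0.82). Itch, a ligase that works with A20, fell from 25.9 to 14.7 FPKM (-0.72), Tnip1, which binds A20, fell from 25.2 to 15.0 FPKM (-0.66), and the deubiquitinase Otud7b fell from 16.8 to 11.1 FPKM (-0.52). Other partners of A20 in the list, named after their values were seen, rose: Tnip2 (0.45), Rnf11 (0.19) and Tax1bp1 (0.14), the last with FPKM values that overlapped between treatments.

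Of 40 textbook target genes, 39 were in the table and 22 were tested, of which 13 were lower and 7 higher, with a median log2 fold change of -0.59. These are 59.1% lower and 31.8% higher, beside 32.2% and 32.1% of all genes tested. The list was chosen with earlier results of these data known, so its shares are not independent of the data. Il1rn, among the lower genes, reached the minimum of 1 FPKM through its DMSO libraries only. The acute phase gene Saa3 fell from 975 to 143 FPKM (-2.66), the neutrophil chemokine Cxcl5 from 19.2 to 5.35 FPKM (-1.75), the siderophore-binding gene Lcn2 from 3580 to 1200.2 FPKM (-1.47) and complement C3 from 2935 to 1122 FPKM (-1.34). The cytokine genes Tnf, Il1b and Il6 were among the 17 under the filter, with at most 6 counts per library, too few to show a difference at this depth. Without risperidone replicate 2, the 3 lists of other components together gave 17 higher and 24 lower genes, in place of 15 and 24, and the target genes gave 7 and 13 as before. Target genes have other regulators too, and the list's median is not a measure of NF-kB activity.

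**Figure D5:**
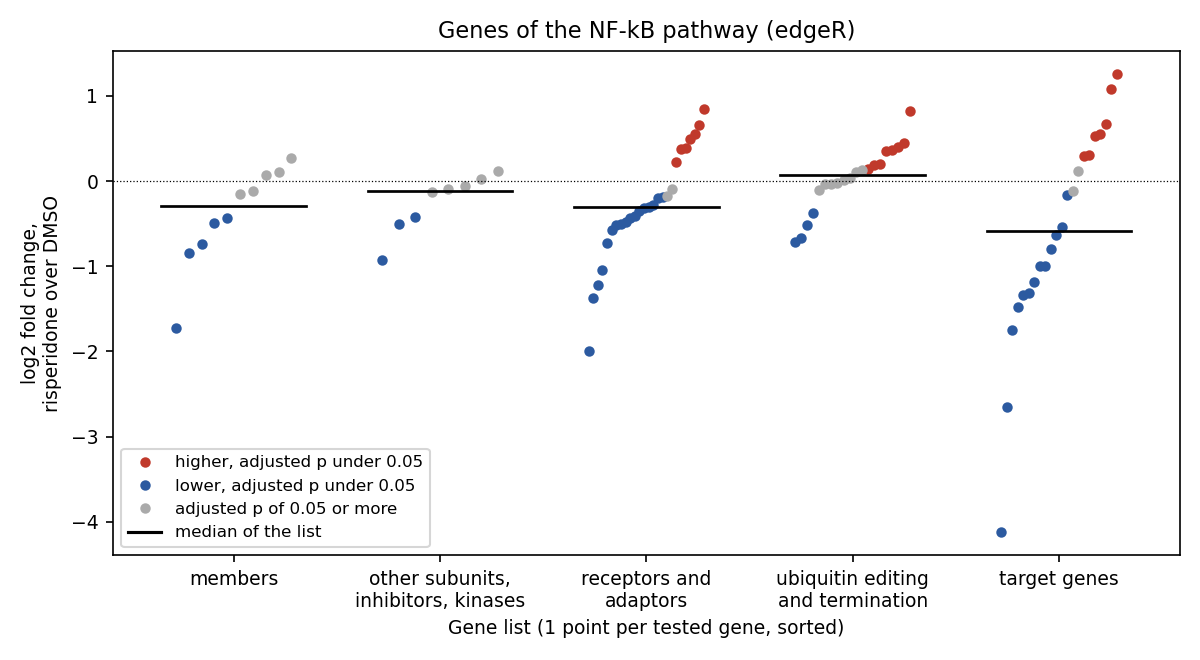
Log2 fold change, risperidone over DMSO, of each tested gene of the 5 NF-kB lists, with 1 point per gene sorted within its list and the median of the list as a line. The medians are -0.29 for the 10 genes, -0.11, -0.31 and 0.07 for the other components and -0.59 for the target genes, and calls in both directions occur among receptors, ubiquitin genes and targets.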

How the data were processed

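mRNA of 4 pooled libraries was sequenced on the MGISEQ-2000 platform. Reads were cleaned by the authors before mapping. The submitters' processing notes name Bowtie2, RSEM, DESeq2 and the build GRCm38.p6, and versions are not given in the sources used here. The table holds estimated counts deposited by the authors without further normalization, of which 91.2% to 91.7% were whole numbers. It also holds FPKM values calculated by the authors on the DC.TOM platform and TPM values deposited by the authors with an equal sum per library. The authors' mean columns were not used. Whether counting used strand is not given in the sources used here.

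Counts were rounded, and edgeR 4.0.16 in R 4.3.3 was run on the 10243 genes whose mean reached 1 FPKM (quasi-likelihood F-test, TMM, two-sided, Benjamini-Hochberg over all genes tested, threshold 0.05). TMM factors were 1.03, 1.03, 0.963 and 0.973, so fitted fold changes lie slightly above ratios of FPKM. The biological coefficient of variation was 0.0468. Replicate numbers did not pair the libraries (correlation of deviations -0.10 over 9222 genes), so no block was used. Alternatives were RLE size factors, library size only, a gene length offset, DESeq2 1.42.0, limma 3.58.1 on log2(FPKM + 1), log2(FPKM + 0.1) and log2(TPM + 1), other filters, a replicate block and each library left out. On simulated data with 200 changed genes among 10243, edgeR recovered 98% of 2-fold and 94% of 1.5-fold changes with 8 false calls. DESeq2 recovered 92% and 84% with 0. The changed genes were drawn from those with higher counts than Nfkbie, and every gene had the same spread between replicates. Far more genes were called in the real data, so these rates do not measure recovery there. Counts of replicates were compared by chi-square, scaled to library totals.

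Members and gene lists were chosen with earlier results of these data known. Named genes are all 10 members and up to 4 genes of each other list. The latter have the largest absolute log2 fold change among called genes whose mean reached 5 FPKM and whose treatments did not overlap. Of the remaining subunits, inhibitors and kinases, only Tbk1 met this rule. Marker genes are named where they were at or near 0, and the others were named after their values were seen. Gene spans and promoter windows came from RefSeq tables for GRCm38.p6.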

Additional observations from a re-analysis of the deposited data

How the results depend on the processing

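With a different scaling or tool the number of genes higher and lower changed from 3287 and 3303 to 1536 and 5292 with TPM, 2500 and 4092 with library size only, 4245 and 2541 with a gene length offset and 2420 and 3975 with limma on log2(FPKM + 1). Leaving out each library in turn gave 2666 to 3310 higher and 2725 to 3350 lower genes. Higher members numbered 0 to 2 over the libraries left out, and the 2 were Nfkbia and Nfkbib without risperidone replicate 2. With the gene length offset 1 member, Nfkbia, was higher. Lower members numbered 5 with every library left out, 9 with TPM and 3 of the 7 tested with a minimum of 5 FPKM. With TPM, 5 of the other components were higher in place of 15 and 36 lower in place of 24, and 4 target genes were higher in place of 7 and 14 lower in place of 13. The sign turned for Nfkb2 with the gene length offset (0.00071) and for Nfkbia with TPM (-0.14). For Rela it turned with library size only (-0.03), TPM (-0.18) and both FPKM pseudocounts (-0.03 and -0.03). Relative to the median of all genes in the same fit, Nfkb2 stayed below at -0.10 and Nfkbia above at 0.09. Rela stayed above that median, at 0.07, 0.05, 0.05 and 0.06 in the same order. Why the median moved was not tested. The difference in the Nfkbia share of IkB transcripts, -0.0552 percentage points, ran from -0.475 to 0.365 over the libraries left out, so it has no stable sign.

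With the replicate number as a block, 3292 genes were higher and 3321 lower, with 0 and 5 members, 14 and 24 other components and 7 and 13 target genes, and the block changed no call of a member. Crossing the pairs, chosen after the data were seen, gave 3474 higher and 3519 lower genes, with 1 and 5 members. With 2 pooled libraries per treatment and 13 to 76 counts for Nfkbie, differences of genes with low counts are limited by depth.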

Other observations

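Within the list of target genes, others outside the naming rule are given here after their values were seen. Il1rn, the antagonist of the interleukin-1 receptor, had 93 and 79 counts with DMSO and 6 and 3 counts with risperidone, with a log2 fold change of -4.13, and it passed the minimum of 1 FPKM through its DMSO libraries only. Nos2, the inducible nitric oxide synthase, had 91 and 88 counts with DMSO and 2 and 5 counts with risperidone, and it was not tested because its mean was under 1 FPKM. The chemokine gene Ccl2 (-1.18) and the adhesion gene Vcam1 (-0.79) were lower, and the related chemokine gene Ccl7 was higher (0.55). Gadd45b, a stress-response gene, and Bcl2l1, which encodes the survival factor Bcl-xL, were higher with log2 fold changes of 1.26 and 1.08. All of these log2 fold changes passed edgeR's quasi-likelihood test at a Benjamini-Hochberg adjusted p under 0.05, beside 32.1% higher and 32.2% lower of all genes tested.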
